A study of Oryza sativa with 4 samples.

Results

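Kinesins are the motor proteins that walk along microtubules, and tubulins are the subunits from which microtubules are built. Members were taken from the deposited annotation as the gene models that carry the GO term for microtubule motor activity or the KEGG orthology (KO) identifier of alpha tubulin (K07374), beta tubulin (K07375) or gamma tubulin (K10389). This gave 68 of the 55986 annotated gene models, of which 52 were kinesins and 16 were tubulins. Microtubules are hollow filaments of alpha and beta tubulin pairs, and gamma tubulin sits in the ring complexes from which they grow. In a dividing plant cell they form the preprophase band, the spindle and then the phragmoplast, the array that guides the new cell plate, while in a growing cell the cortical array orients cellulose deposition. Plants have many kinesins, most of the well studied ones acting in the spindle or the phragmoplast.

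The study compared seedlings of the rice mutant mre11, which carries a T-DNA insertion in the gene for the DNA repair nuclease Mre11, with WT seedlings of the same japonica cultivar, Dongjin. All seedlings were 7 days old. RNA of whole seedlings was sequenced in 2 samples per genotype, each from 3 pooled plants, so every value is an average over root and shoot tissue. In such bulk samples, fewer cells of a type and less RNA per cell cannot be told apart, and the single insertion line does not separate the loss of Mre11 from other changes that the line may carry.

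Reads counted on genes came to 19004825 and 17170661 in the mre11 libraries and 12753324 and 16460543 in the WT libraries. Levels are given as CPM, the counts scaled to a common library size after TMM scaling, and differences as log2 fold changes of mre11 over WT with their standard error (SE), fitted by the quasi-likelihood test of edgeR over 24470 genes that passed a filter on low counts. A gene was called higher or lower at an adjusted p below 0.05 (Benjamini-Hochberg over all tested genes) and at least a 2-fold difference. The Mre11 gene itself (LOC_Os04g54340) had 132 and 118 counts in the mre11 libraries and 306 and 471 counts in the WT libraries (log2 fold change -2.09, SE 0.191, adjusted p = 0.00141). All tested genes together had a median log2 fold change of 0.03, and this became 0.11 under upper-quartile scaling and 0.19 when libraries were scaled by size only. With 2 samples against 2, no permutation of the samples can reach a p below 0.333, and the p-values of edgeR borrow the spread of other genes.

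The kinesins and the tubulins differed in what they showed. Of the 46 kinesins tested, 17 were called higher in mre11 and 2 lower, which is 37.0% and 4.35%, where 12% of all tested genes were called higher and 9.31% lower (21.3% in either direction). Of the 15 tubulins tested, 3 were called higher and 0 lower. The median log2 fold change was 0.67 for the kinesins and -0.31 for the tubulins, and the tubulin value moved to -0.15 when libraries were scaled by size only, to -0.20 without mre11 replicate 1, to -0.21 without WT replicate 2 and to -0.48 without mre11 replicate 2. The tubulin count of 0 also held with DESeq2, and 3 tubulins had an unadjusted p below 0.05 on the lower side in edgeR, none of them 2-fold lower. Together the 52 kinesins took 1579 and 1487 CPM in the mre11 libraries and 1193 and 1264 CPM in the WT libraries, which did not overlap. The 16 tubulins took 4277 and 5298 CPM in mre11 and 5521 and 6110 CPM in WT, again without overlap and in the opposite direction. As a share of all counts, without TMM scaling, the kinesins took 0.172% and 0.152% in mre11 and 0.111% and 0.121% in WT, while the tubulin shares of 0.466% and 0.543% in mre11 and 0.515% and 0.583% in WT overlapped.

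**Figure D1:**
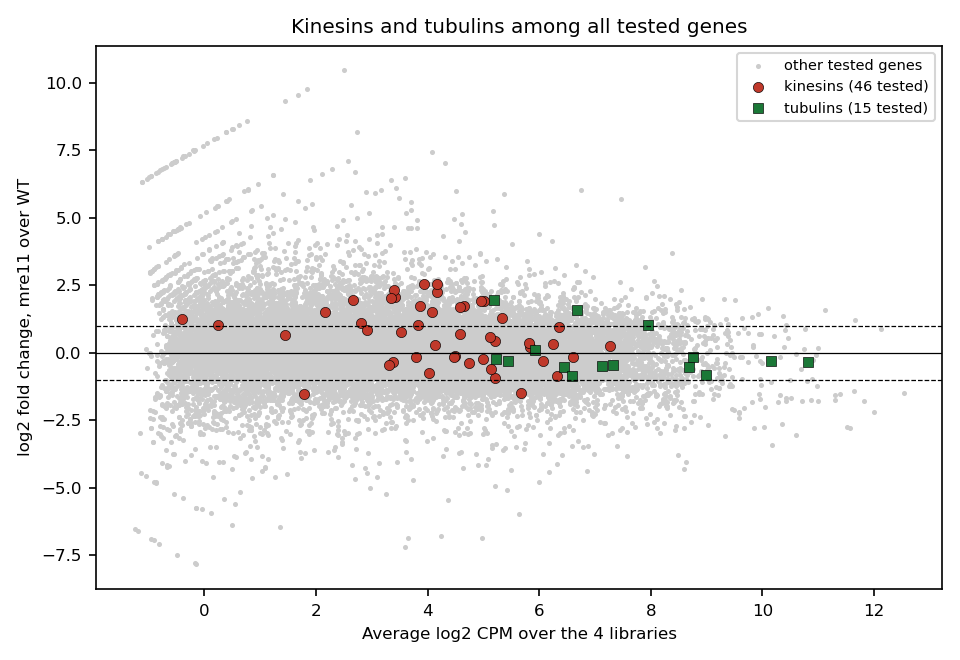
Fitted log2 fold change of mre11 over WT (vertical axis) against mean level in log2 CPM (horizontal axis) for all tested genes (grey), the 46 tested kinesins and the 15 tested tubulins. Most kinesins that lie above the 2-fold line have modest levels, while 11 of the 15 tubulins lie below 0, down to -0.87, and 3 beta tubulins and the gamma tubulin lie above it.

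Counted by library without any test, both mre11 libraries lay above both WT libraries in 30 of the 46 tested kinesins (65.2%) and below them in 11, with 5 overlapping. Over all tested genes these shares were 37.5% above and 35.7% below. With no fold threshold, 21 kinesins had an adjusted p below 0.05 on the higher side and 5 on the lower side, beside 18.8% and 18.3% of all tested genes. Replicates were about as close for kinesins as for other genes. The median fold between the libraries of a genotype was 1.19 between the mre11 libraries and 1.16 between the WT libraries over tested kinesins, and 1.18 and 1.17 over all tested genes. Of the 52 kinesins, 6 were not tested. LOC_Os04g28980, LOC_Os08g33000, LOC_Os09g07770 and LOC_Os12g41480 had 0 counts in all 4 libraries. LOC_Os01g52020 had 0 and 1 counts in mre11 and 1 and 0 counts in WT. LOC_Os02g13580 had 17 and 8 counts in mre11 and 3 and 1 counts in WT, too few for the filter.

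Many genes that mark dividing cells were also higher in mre11. Of 45 gene models annotated as MCM helicase subunits, PCNA, A-type and B-type cyclins or histone H4, 33 were tested, 18 (54.5%, beside 12% of all tested genes) were called higher and 0 lower, with a median log2 fold change of 1.59. DESeq2 called 18 higher and 0 lower. In edgeR, 2 A-type cyclins passed the adjusted p on the lower side at less than 2-fold and were the markers with an unadjusted p below 0.05 there, LOC_Os05g14730 (log2 -0.58, adjusted p = 0.0223) and LOC_Os12g20324 (log2 -0.91, adjusted p = 0.0226). The 45 models summed to 1542 and 1534 CPM in mre11 and 1044 and 918 CPM in WT, and 7 of them were at 0 in every library. Of 9 green leaf models, annotated as a light-harvesting protein, the small subunit of RuBisCO or a photosystem I subunit, 8 were tested, 1 was called higher and 0 lower. These summed to 11680 and 20001 CPM in mre11 and 8248 and 12889 CPM in WT, and the genotypes overlapped. The part of either marker list in the kinesin and tubulin results was not tested.

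The kinesin-12 family (K10400) had the most members called. In Arabidopsis, kinesins of this family sit in the middle of the phragmoplast or mark the division plane. Of its 6 members, all tested, 4 were called higher and 0 lower, beside 12% and 9.31% of all tested genes. The family median was 1.82. LOC_Os03g39020 was at 46.3 and 54.9 CPM in mre11 and 12.5 and 14.1 CPM in WT, a 3.79-fold difference (log2 1.92, SE 0.171, edgeR adjusted p = 0.00137). LOC_Os03g53920 was at 50.5 and 46.1 CPM in mre11 and 12.6 and 13.2 CPM in WT, 3.75-fold higher (SE 0.155, adjusted p = 0.00122). In both genes the replicates of a genotype lay close together and the genotypes lay far apart. LOC_Os12g39980 was at 38.1 and 38.6 CPM in mre11 and 9.91 and 13.1 CPM in WT (3.32-fold, adjusted p = 0.00201). LOC_Os02g28850, the least abundant of the 4, was at 16.8 and 17.5 CPM in mre11 and 3.86 and 3.05 CPM in WT (4.98-fold, adjusted p = 0.00164). The other members went apart from each other at less than 2-fold. LOC_Os07g44400 had 312 and 235 counts in mre11 and 104 and 125 counts in WT (log2 0.77, adjusted p = 0.0292), and LOC_Os04g36570 had 581 and 407 counts in mre11 and 595 and 742 counts in WT (log2 -0.92, adjusted p = 0.00695). These 2 genes were picked out after their values had been seen. Without mre11 replicate 1, LOC_Os04g36570 reached -1.06 and was called lower.

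**Figure D2:**
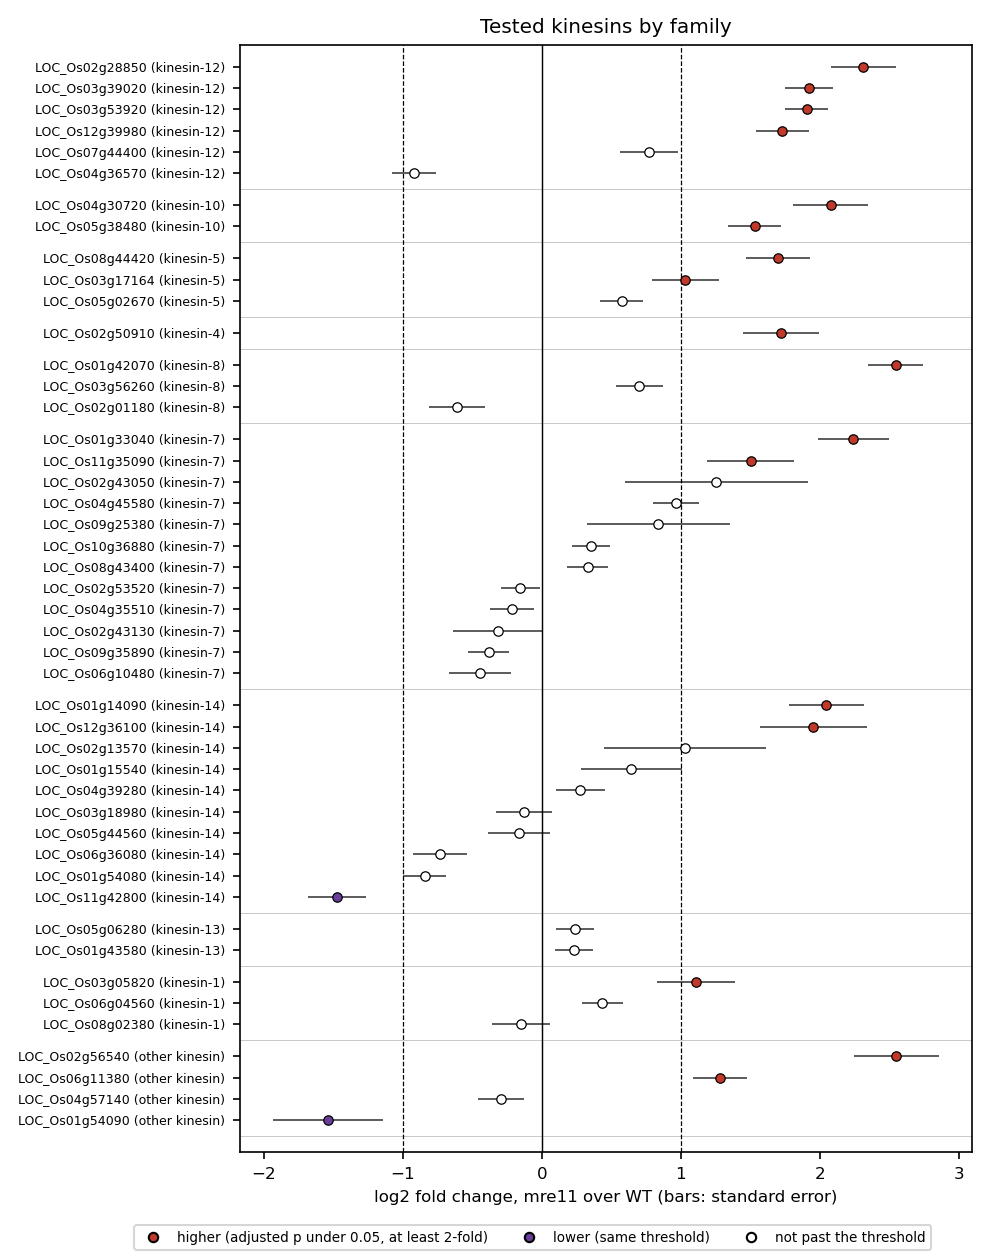
Log2 fold change of mre11 over WT with its standard error for each tested kinesin, grouped by KO family, with filled marks for genes called higher or lower. The kinesin-4 member and both kinesin-10 members lie beyond 2-fold, kinesin-13 lies near 0, and kinesin-14 reaches both sides.

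Kinesin-5 motors (K10398) cross-link and slide apart the antiparallel microtubules of the spindle. LOC_Os08g44420 was at 39.9 and 32.3 CPM in mre11 and 9.07 and 13 CPM in WT, 3.25-fold higher (SE 0.232 on the log2 scale, adjusted p = 0.00345). LOC_Os03g17164 was at 22.2 and 15.5 CPM in mre11 and 9.66 and 8.78 CPM in WT, 2.05-fold higher (adjusted p = 0.0179). The mre11 libraries of the second gene differed from each other more than its WT libraries did, and its call was lost without mre11 replicate 1 (log2 0.76, adjusted p = 0.0594), without WT replicate 1 (adjusted p = 0.0821) and without WT replicate 2 (adjusted p = 0.107). The third member, LOC_Os05g02670, had 849 and 735 counts in mre11 and 363 and 396 counts in WT (log2 0.57, adjusted p = 0.0313), short of 2-fold, and was picked out after its value had been seen.

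Kinesin-10 and kinesin-4 include the chromokinesins, which in animal cells bind chromosome arms. Both kinesin-10 members (K10403) were called higher, and both carry the GO terms DNA repair and DNA binding, which no other kinesin pairs. LOC_Os05g38480 was at 24.5 and 24.8 CPM in mre11 and 7.81 and 9.23 CPM in WT (2.89-fold, adjusted p = 0.00264). LOC_Os04g30720 was at 16.5 and 17.1 CPM in mre11 and 3.11 and 4.77 CPM in WT (4.22-fold, adjusted p = 0.00301). Each was nearly equal in the mre11 libraries. The only kinesin-4 gene (K10395) among the members, LOC_Os02g50910, was at 21.1 and 23.0 CPM in mre11 and 4.96 and 8.27 CPM in WT. Its fold was 3.30 (adjusted p = 0.00541). A more abundant K10395 gene without the motor activity term, LOC_Os09g02650, was picked out after its values had been seen. It was at 107 and 108 CPM in mre11 and 106 and 113 CPM in WT (log2 -0.03, adjusted p = 0.881).

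Kinesin-8 motors (K10401) limit microtubule length at the growing end in yeast and animals. LOC_Os01g42070 was at 24.7 and 26.8 CPM in mre11 and 4.28 and 4.52 CPM in WT, 5.84-fold higher, one of the clearest separations among the kinesins (log2 2.55, SE 0.196, adjusted p = 0.00114). A second member, LOC_Os03g56260, had 665 and 473 counts in mre11 and 219 and 281 counts in WT (log2 0.70, adjusted p = 0.0216), below 2-fold, and was likewise picked out after its value had been seen. The third member, LOC_Os02g01180, lay on the other side, at 32.4 and 23.1 CPM in mre11 and 39.5 and 45.2 CPM in WT, without overlap (log2 -0.61, SE 0.201, adjusted p = 0.0534), and was named after its value had been seen. It missed the adjusted p in edgeR, and had 0.0441 with DESeq2 and 0.0162 without mre11 replicate 1, always at less than 2-fold. The family median was 0.70.

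Kinesin-7 (K11498) was the largest family, with 13 members and 12 tested. Of these, 2 were called higher (16.7%, beside 12% of all tested genes) and 0 lower (beside 9.31%). The family includes motors that in Arabidopsis and tobacco activate the kinase cascade of phragmoplast expansion. LOC_Os01g33040, whose GO terms name male meiosis cytokinesis, embryo sac cellularization and pollen development, was at 27.0 and 31.4 CPM in mre11 and 4.79 and 7.45 CPM in WT (4.73-fold, SE 0.255 on the log2 scale, adjusted p = 0.00213). LOC_Os11g35090, a low gene, was at 5.84 and 6.82 CPM in mre11 and 2.02 and 2.42 CPM in WT (2.84-fold, adjusted p = 0.0130). Its call was lost without WT replicate 1 (adjusted p = 0.0715), without WT replicate 2 (adjusted p = 0.0579) and without mre11 replicate 2 (adjusted p = 0.0519). The family median was 0.34 and fell to 0.08 without mre11 replicate 1. Among members picked out after their values had been seen, LOC_Os04g45580 had 2512 and 1651 counts in mre11 and 638 and 893 counts in WT (log2 0.96, SE 0.165, adjusted p = 0.00699). It lay just under the 2-fold threshold and passed it under upper-quartile scaling (1.04), or when libraries were scaled by size only (1.13). LOC_Os09g25380 had 293 and 80 counts in mre11 and 58 and 88 counts in WT, so that a single mre11 library set its value (log2 0.84, SE 0.515, adjusted p = 0.239). It was -0.20 without mre11 replicate 1 and 1.42 without mre11 replicate 2.

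Kinesin-14 holds the motors that move towards the minus end, and its members here, all K10406, went both ways. Gene models with a kinesin-14 KO (K10405 or K10406) but without the motor activity term are not in the counts of this paragraph. They come below. Of 11 members, 10 were tested, 2 were called higher (20%, beside 12% of all tested genes) and 1 lower (10%, beside 9.31%). With so few members, these counts lie near those shares. The median of 0.07 had no stable sign, at -0.06 without mre11 replicate 1, 0.03 without WT replicate 1, 0.13 without WT replicate 2 and 0.20 without mre11 replicate 2. LOC_Os01g14090 was at 17.7 and 14.1 CPM in mre11 and 3.19 and 4.45 CPM in WT (4.13-fold, adjusted p = 0.00317). LOC_Os12g36100 was at 8.16 and 11.3 CPM in mre11 and 1.68 and 3.25 CPM in WT (3.87-fold, adjusted p = 0.0108), and its call was lost without WT replicate 1 (adjusted p = 0.0590). LOC_Os11g42800 went the other way, at 22.4 and 31.8 CPM in mre11 and 67.5 and 82.5 CPM in WT, 0.360 of the WT level (log2 -1.47, SE 0.209, adjusted p = 0.00390). It is an abundant kinesin, and even its highest mre11 library stood far under its lowest WT library. LOC_Os01g54080 was at 63.9 and 50.8 CPM in mre11 and 101 and 105 CPM in WT (log2 -0.84, SE 0.156, adjusted p = 0.00886). It passed the adjusted p but not the 2-fold threshold, which it crossed without mre11 replicate 1 (log2 -1.01). LOC_Os06g36080, picked out after its value had been seen, had 278 and 191 counts in mre11 and 243 and 315 counts in WT (log2 -0.73, adjusted p = 0.0271).

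Kinesin-1 (K10396) and the members outside the listed families gave the remaining calls. LOC_Os03g05820, a kinesin-1 member, was at 10.8 and 7.73 CPM in mre11 and 4.20 and 4.39 CPM in WT (2.16-fold, adjusted p = 0.0248). It was the weakest of the 17 rises by adjusted p and was lost without mre11 replicate 1 (log2 0.85), without WT replicate 1 (adjusted p = 0.113) and without WT replicate 2 (adjusted p = 0.108). LOC_Os02g56540 is annotated to the phragmoplast and carries the kinesin KO identifier K10394, which is outside the families listed here. It was at 24.9 and 35.5 CPM in mre11 and 3.86 and 6.30 CPM in WT. Its 5.87-fold difference was the largest rise of the 46 (log2 2.55, SE 0.304, adjusted p = 0.00242). LOC_Os06g11380, whose GO terms name the phragmoplast, the cell plate and chloroplast movement, was at 57.1 and 56.6 CPM in mre11 and 19.3 and 27.3 CPM in WT (2.43-fold, adjusted p = 0.00466). These were the 2 kinesins with the term phragmoplast. LOC_Os01g54090, which has no KO identifier, was at 1.26 and 2.27 CPM in mre11 and 5.21 and 5.03 CPM in WT (0.344 of WT, adjusted p = 0.0249). It had few counts, and its call was lost without WT replicate 1 (adjusted p = 0.0966), without WT replicate 2 (adjusted p = 0.0945) and without mre11 replicate 1 (adjusted p = 0.0840). By its identifier it neighbours LOC_Os01g54080, the kinesin-14 member that was also lower.

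The 15 tested kinesins not given here by name spanned log2 fold changes of -0.44 to 1.26 and mean levels of 0.595 to 76.2 CPM, and none passed the adjusted p, the lowest being 0.0565.

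**Figure D3:**
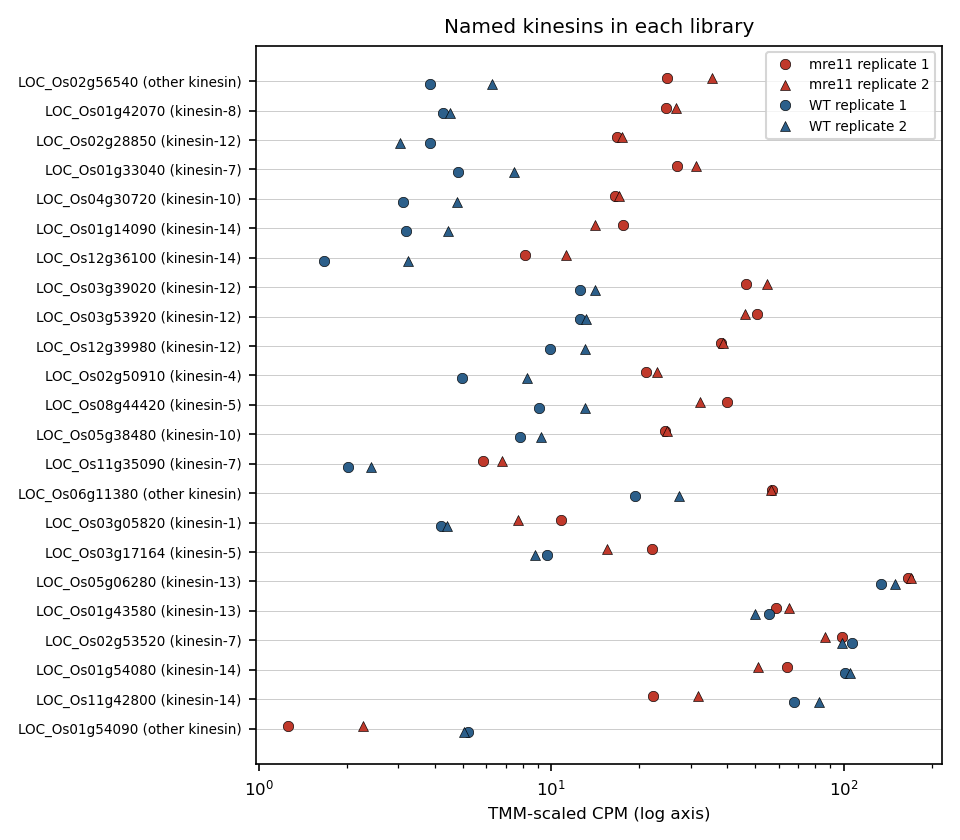
TMM-scaled CPM (horizontal log axis) of each kinesin that was called or is among the 5 most abundant (1 row per gene), with the mre11 libraries in red just above the line and the WT libraries in blue just below it, circles for replicate 1 and triangles for replicate 2. The 17 kinesins called higher have the mre11 points above the WT points, and the 2 called lower reverse that order.

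The kinesins called higher had low WT levels beside the other tested kinesins. Their mean WT level ran between 2.22 and 23.3 CPM, with a median of 6.12 CPM. The other tested kinesins had a median WT level of 27.8 CPM. Genes called for a high ratio of mre11 to WT tend to have a low WT level, so this gap follows in part from the selection. In 15 of the 17, the lowest mre11 library was at least 2 times the highest WT library. The 2-fold threshold on these same libraries favours such a separation. The 17 genes lay on 9 chromosomes. Across the 46 tested kinesins, which are not independent replicates, the log2 fold change had a Pearson r of -0.26 with log2 mean CPM and of 0.08 with log2 gene length. The 5 kinesins with the highest deposited RPKM, which corrects for length, were LOC_Os02g53520, LOC_Os05g06280, LOC_Os11g42800, LOC_Os01g54080 and LOC_Os01g43580, at means of 29.5, 27.0, 24.7, 23.6 and 21.7 RPKM over the 4 libraries. Of these, LOC_Os05g06280 and LOC_Os01g43580 are the kinesin-13 members (K10393), microtubule depolymerases in animals. LOC_Os05g06280 was at 166 and 170 CPM in mre11 and 134 and 150 CPM in WT (log2 0.24, adjusted p = 0.213), and LOC_Os01g43580 at 58.8 and 64.9 CPM in mre11 and 55.5 and 49.8 CPM in WT (log2 0.23, adjusted p = 0.228). Neither passed the test, though in each the mre11 libraries lay above the WT libraries. LOC_Os02g53520, a kinesin-7 member, was at 98.5 and 86.1 CPM in mre11 and 107 and 98.9 CPM in WT (log2 -0.15, adjusted p = 0.417), a value that became 0.01 with the library size alone.

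Alpha tubulin (K07374) was carried mainly by 3 of its 5 genes, and none of the 5 was called with edgeR or DESeq2 or had an unadjusted p below 0.05 in edgeR. LOC_Os11g14220, the most abundant tubulin at a mean of 996 RPKM, was at 1452 and 1709 CPM in mre11 and 1965 and 2074 CPM in WT (log2 -0.35, SE 0.192, adjusted p = 0.189). LOC_Os03g51600 was at 975 and 1054 CPM in mre11 and 1171 and 1351 CPM in WT (log2 -0.31, SE 0.180, adjusted p = 0.209). In both genes the mre11 libraries lay under the WT libraries by less than the test could separate. LOC_Os07g38730 overlapped between genotypes, at 324 and 495 CPM in mre11 and 361 and 542 CPM in WT, and its log2 difference of -0.14 (adjusted p = 0.715) became 0.01 with the library size alone, 0.14 without mre11 replicate 1 and 0.18 without WT replicate 2. LOC_Os03g11970 and LOC_Os10g33710 were lower-level genes. LOC_Os03g11970 was at 34.1 and 34.6 CPM in mre11 and 38.6 and 41.3 CPM in WT (log2 -0.22, adjusted p = 0.249), and LOC_Os10g33710 at 40.3 and 37.5 CPM in mre11 and 45.9 and 49.5 CPM in WT (log2 -0.30, adjusted p = 0.135). All 5 fitted values lay between -0.35 and -0.14. The sum over the 5 genes was 2825 and 3331 CPM in mre11 and 3582 and 4058 CPM in WT.

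**Figure D4:**
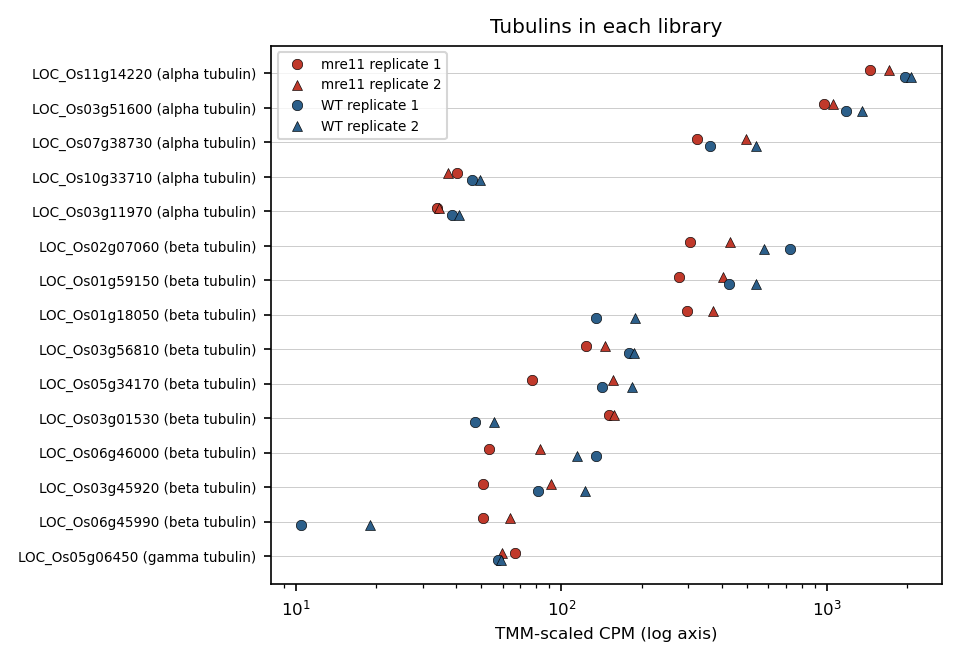
TMM-scaled CPM (horizontal log axis) of the 15 tested tubulins (1 row per gene, alpha, beta, then gamma), with the mre11 libraries in red just above the line and the WT libraries in blue just below it, circles for replicate 1 and triangles for replicate 2. The beta tubulins LOC_Os01g18050, LOC_Os03g01530 and LOC_Os06g45990 lie higher in mre11, and the abundant alpha tubulins lie slightly lower or overlap.

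Beta tubulin (K07375) held all 3 tubulin calls. LOC_Os06g45990 was at 50.7 and 64.3 CPM in mre11 and 10.5 and 19.0 CPM in WT, 3.87-fold higher (log2 1.95, SE 0.289, adjusted p = 0.00446). LOC_Os03g01530 was at 151 and 157 CPM in mre11 and 47.5 and 55.6 CPM in WT, 2.98-fold higher (log2 1.58, SE 0.145, adjusted p = 0.00146). LOC_Os01g18050 was at 298 and 372 CPM in mre11 and 134 and 189 CPM in WT, 2.07-fold higher (log2 1.05, SE 0.214, adjusted p = 0.0120). The first and second genes stayed called with each library left out, while LOC_Os01g18050 was just under the 2-fold threshold without mre11 replicate 2 (log2 0.87) and lost its call without WT replicate 1 (adjusted p = 0.0749).

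The other 6 tested beta tubulins all had fitted values below 0. LOC_Os02g07060 was at 305 and 432 CPM in mre11 and 724 and 579 CPM in WT (log2 -0.82, SE 0.225, adjusted p = 0.0306). LOC_Os06g46000 was at 53.2 and 83.1 CPM in mre11 and 135 and 114 CPM in WT (log2 -0.87, SE 0.229, adjusted p = 0.0272). These are the 2 tubulins that passed the adjusted p on the lower side with no fold threshold. LOC_Os01g59150 was at 277 and 407 CPM in mre11 and 428 and 542 CPM in WT (log2 -0.50, adjusted p = 0.131). LOC_Os03g56810 was at 123 and 146 CPM in mre11 and 179 and 188 CPM in WT (log2 -0.45, adjusted p = 0.0530). In these 4 genes the genotypes did not overlap. Over the 15 tested tubulins, both mre11 libraries lay below both WT libraries in 8 and above them in 4, with 3 overlapping. Over all tested genes the shares were 35.7% below and 37.5% above. LOC_Os03g45920, at 50.8 and 91.3 CPM in mre11 and 81.7 and 122 CPM in WT, and LOC_Os05g34170, at 77.5 and 156 CPM in mre11 and 141 and 185 CPM in WT, overlapped between genotypes (log2 -0.52 and -0.48, adjusted p = 0.224 and 0.276). Replicate 1 was the lower mre11 library in all 6 genes, and the count of tubulins called lower depended on replicate 2. Without mre11 replicate 2, 4 tubulins were called lower, namely LOC_Os02g07060 (-1.10), LOC_Os03g45920 (-1.01), LOC_Os05g34170 (-1.08) and LOC_Os06g46000 (-1.23). The tenth beta tubulin model, LOC_Os06g07280, had 0 counts in every library.

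The makeup of the beta tubulin counts shifted between genotypes. LOC_Os01g18050 took 21.5% and 19.5% of all beta tubulin counts in mre11 and 7.15% and 9.48% in WT. LOC_Os03g01530 took 10.9% and 8.23% in mre11 and 2.52% and 2.79% in WT, and LOC_Os06g45990 took 3.66% and 3.37% in mre11 and 0.558% and 0.952% in WT. LOC_Os02g07060, the leading gene by counts in every library, took 22% and 22.6% in mre11 and 38.5% and 29.0% in WT. These shares need no scaling between libraries, and none of the 4 genes overlapped between genotypes. LOC_Os02g07060 had passed the adjusted p on the lower side on these same counts, and the others had been called higher. The shares are also parts of the same total, so rises in some genes lower the shares of others. They are therefore no separate support for the fits. For alpha tubulin the makeup was close to even between genotypes, with LOC_Os11g14220 at 51.4% and 51.3% of alpha tubulin counts in mre11 and 54.9% and 51.1% in WT. The ratio of all alpha to all beta tubulin counts was 2.04 and 1.75 in mre11 and 1.90 and 2.04 in WT, which overlapped.

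**Figure D5:**
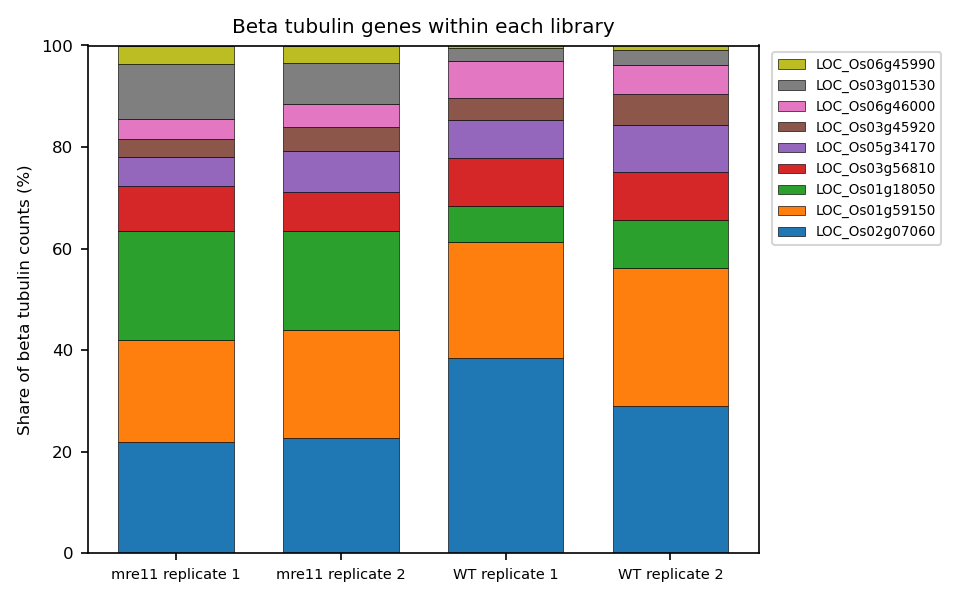
Share of all beta tubulin counts (percent) taken by each beta tubulin gene in the 2 mre11 libraries and the 2 WT libraries. LOC_Os01g18050, LOC_Os03g01530 and LOC_Os06g45990 take larger shares in both mre11 libraries, and LOC_Os02g07060 takes a smaller one.

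LOC_Os06g45990 and LOC_Os06g46000 are neighbours by identifier and moved in opposite directions. Within a library, the count ratio of LOC_Os06g45990 to LOC_Os06g46000 was 0.953 and 0.773 in mre11 and 0.0778 and 0.166 in WT. Tubulin genes share long stretches of nearly the same coding sequence, and how the counting treated reads that match several of them is not given in the sources used here, so the split of counts between individual tubulins is uncertain. Gamma tubulin (K10389), the single gene LOC_Os05g06450, was at 66.9 and 59.6 CPM in mre11 and 57.9 and 59.1 CPM in WT, a difference within the spread (log2 0.11, SE 0.134, adjusted p = 0.530).

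Other microtubule genes were read from the same fit for comparison. They were 114 gene models outside the members with a microtubule, spindle or phragmoplast GO term or a KO identifier of a microtubule-associated protein, and those named here were picked after their values had been seen. Of 104 tested, 21 (20.2%, beside 12% of all tested genes) were called higher and 7 (6.73%, beside 9.31%) lower, with a median log2 fold change of 0.07. Both tested EB1 genes, which track growing microtubule ends, were called higher. LOC_Os10g35580 had 593 and 537 counts in mre11 and 54 and 107 counts in WT (log2 2.37, adjusted p = 0.00164), and LOC_Os04g54940 had 297 and 204 counts in mre11 and 47 and 69 counts in WT (log2 1.63, adjusted p = 0.00488). Of 2 tested Aurora kinases, which are mitotic kinases, 1 was called higher and 0 lower. LOC_Os01g09580 had 458 and 479 counts in mre11 and 48 and 68 counts in WT (log2 2.56, adjusted p = 0.00129). The other Aurora kinase was at log2 0.81 and was not called (adjusted p = 0.0641). The spindle assembly factor TPX2 was split, with LOC_Os07g32390 at log2 2.09 and LOC_Os02g22084 at -1.62 (adjusted p = 0.00161 and 0.00443). The bundling proteins of the MAP65 group had calls on both sides, with 4 of 15 tested called higher and 2 lower, beside 12% and 9.31% of all tested genes. LOC_Os01g49200 had 808 and 722 counts in mre11 and 102 and 125 counts in WT (log2 2.28), while LOC_Os09g27700 had 1070 and 1064 counts in mre11 and 2347 and 4117 counts in WT (log2 -2.03). CLASP, which stabilises cortical microtubules, had 0 of 3 tested genes called higher and 2 lower, LOC_Os02g40430 at -1.51 (adjusted p = 0.00138) and LOC_Os04g42840 at -1.24 (adjusted p = 0.00183). The gamma tubulin complex had 0 of 8 tested genes called in either direction, beside 21.3% of all tested genes. Augmin, which recruits that complex to existing microtubules, had 0 of 5. Their medians were -0.10 and 0.39.

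The GO term did not capture every motor. A further 27 gene models carried a kinesin KO identifier without the term microtubule motor activity, a list drawn up after the files had been opened. Of these, 7 were also counted above among the other microtubule genes, where they gave 5 of the 21 higher calls. The first 3 genes named next were counted in both lists. Of 20 tested, 6 were called higher and 2 lower, beside the same 12% and 9.31%, and their median was 0.45, or 0.23 without mre11 replicate 2 and 0.29 without WT replicate 1. The kinesin-14 gene LOC_Os03g02290 had 588 and 394 counts in mre11 and 74 and 89 counts in WT (log2 2.10, adjusted p = 0.00164). LOC_Os12g42160, of the same family, had 342 and 295 counts in mre11 and 24 and 77 counts in WT (log2 2.24, adjusted p = 0.00723), and the kinesin-12 gene LOC_Os04g28260 had 631 and 537 counts in mre11 and 111 and 192 counts in WT (log2 1.50, adjusted p = 0.00315). All 3 separated the genotypes, the second with WT libraries that stood well apart from each other. The other higher calls, LOC_Os05g33030, LOC_Os07g01490 and LOC_Os11g44880, were kinesin-14 genes (log2 1.61, 1.08 and 1.79). So were the lower calls, LOC_Os02g12100 and LOC_Os02g12200 (log2 -1.48 and -2.16). Among uncalled genes picked out afterwards, LOC_Os09g02650, the most abundant of the list, was at log2 -0.03. The kinesin-7 gene LOC_Os01g01570 was at -0.61 (adjusted p = 0.0149). The 2 lower calls had few counts and did not hold with each library left out, at 0 calls without WT replicate 1, without WT replicate 2 or without mre11 replicate 2 and 1 without mre11 replicate 1.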

How the data were processed

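Total RNA of 7-day-old mre11 and WT seedlings was sequenced in 2 samples per genotype, each pooled from 3 plants. The p-values therefore rest on spread between pools, not between single plants, and edgeR borrows that spread across genes. The authors mapped the reads to the rice MSU pseudomolecules, counted them per gene model with HTSeq 0.6.1 and deposited counts without normalization. Their notes also name DESeq2 1.6.3. The strand setting is not given in the sources used here, so overlapping and antisense genes are uncertain. The deposited RPKM values divide counts by a length that differs from the listed gene length, and served for levels between genes and for an alternative. A second deposited table repeats the same rows and values and was not used.

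The counts were tested with edgeR 4.0.16 under R 4.3.3 (TMM, filterByExpr, glmQLFit, glmQLFTest, genotype only), with a common dispersion of 0.0384. CPM uses TMM-scaled library sizes. Alternatives were DESeq2 1.42.0, limma 3.58.1 on log2(RPKM + 1) and log2(RPKM + 0.1), upper-quartile and library-size scaling, other filters and thresholds, a replicate block and leaving out each library. The test was checked on simulated data.

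Named genes were every tested tubulin, every kinesin called with non-overlapping genotypes, and the 5 kinesins of highest mean RPKM, with others named as picked out afterwards. Of the named kinesin genes without the motor activity term, only LOC_Os03g02290, LOC_Os12g42160 and LOC_Os04g28260 are in the tally of refits below. The members and lists were chosen with earlier results of these data known. Kinesin families follow the KO identifiers. The RefSeq gene table (ASM3414082v1) held 0 of the 68 identifiers, so no sequences or coordinates are given.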

Additional observations from a re-analysis of the deposited data

How the results depend on the processing

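Of 720 refits of the 60 named genes, 681 kept their direction and their side of the threshold, 18 lost the call, 12 gained it and 9 changed sign, the last all among genes that were not called. Kinesins called higher numbered 17, and 13 to 18 when 1 library was left out. The 2 kinesins called lower became 1 with limma on log2(RPKM + 1), 5 with no fold threshold and 1 at an adjusted p below 0.01, and 1 to 3 with each library left out. The kinesin median of 0.67 became 0.84 with the library size alone, and the tubulin median of -0.31 became -0.15 there and with limma at either pseudocount, and -0.48 to -0.20 when 1 library was left out. Tubulins called lower went up to 2 with no fold threshold, and were 0 to 4 with each library left out. LOC_Os07g38730 changed sign with the library size alone (0.0108), with limma on log2(RPKM + 1) (0.0195) and log2(RPKM + 0.1) (0.0196), and ranged over -0.48 to 0.18 with each library left out. LOC_Os02g53520 changed sign with the library size alone (0.0133) and limma at either pseudocount (0.00605). LOC_Os09g25380 ranged over -0.20 to 1.42 with each library left out. Over all genes, 2930 were called higher and 2277 lower, and 3795 and 1711 with the library size alone. The causes were not tested. Precision is limited by 2 samples per genotype and, for the lowest members, by counts.

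The replicate numbers do not pair the samples. Deviations of same-numbered samples from their group means had a correlation of -0.0035, and with the replicate block 17 kinesins were called higher and 2 lower, 3 tubulins higher and 0 lower, with medians of 0.64 and -0.31. No call among the 60 genes in the tally of refits changed with the block.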
